A study of Macaca mulatta with 12 samples.

Results

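The genes described here encode complexes I to IV of the mitochondrial electron transport chain, read in the dorsal raphe of female rhesus macaques under ovarian hormone treatment. Members were all probe sets whose single gene symbol began with NDUF, SDHA to SDHD, UQCR, or COX followed by a digit, and each gene was represented by its brightest probe set over the 12 arrays. The rule used names and brightness, not the hormone comparisons. It found 48 genes on 52 probe sets, of 8226 genes and 12625 probe sets in all. Of the 48 genes, 44 passed the filter on dim probe sets and were tested, among 5499 tested genes. COX10, NDUFA6, NDUFB3 and NDUFB6 were too dim, with mean intensities of 11.8, 26.7, 40.6 and 12.8.

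The study asked how estrogen and progesterone act on gene expression in this midbrain nucleus, which holds serotonin neurons. There were 4 groups of 3 monkeys and 1 array per monkey. The groups received placebo, estrogen, progesterone, or estrogen plus progesterone, with steroid in capsules under the skin for 1 month before the tissue was taken. The placebo monkeys are labelled OVX, the usual short form for ovariectomized, and the labels of the other groups do not say it. The labels give no age, dose or strain. RNA came from bulk tissue, so fewer cells of a type and less RNA per cell cannot be told apart in any value below.

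The electron transport chain sits in the inner mitochondrial membrane. Complex I takes electrons from NADH and complex II takes them from succinate, both pass them to ubiquinone, and complex III hands them through cytochrome c to complex IV, which reduces oxygen. Complexes I, III and IV pump protons, and the gradient drives ATP synthase. Neurons depend heavily on this pathway, and many of its nuclear genes are known targets of the factors NRF1, GABPA, YY1 and ESRRA. Subunits encoded in mitochondrial DNA carry other symbols and were not analysed here.

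The arrays correlated with each other at a Spearman coefficient of 0.910 to 0.967 over probe sets, and their median intensity lay between 74.2 and 87.1. The serotonin transporter SLC6A4 read 435 ± 39.9 and the serotonin neuron transcription factor FEV 150 ± 34.4 in the placebo group (mean intensity ± SD, n = 3), so markers of the labelled tissue were present. A human array was used for macaque RNA, so an intensity also depends on sequence match, and levels are not compared between probe sets. The first array of the estrogen group and the first of the combined group differed from the rest. The 28S ribosomal RNA control read 841 and 1354 on them and 64.2 to 179 on the other 10 arrays. The GAPDH control gave 2.45 and 2.05 times as much signal at its 3' end as at its 5' end on them, and at most 1.46 times elsewhere.

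No electron transport chain gene passed the test in any comparison, and most were held to less than a 2-fold change in either direction. The test was limma on quantile normalized log2(intensity + 8.26) values, with Benjamini-Hochberg adjustment over all 7535 tested probe sets at 0.05. With estrogen against placebo, 0 of 44 members were called (lowest limma adjusted p = 0.999), where 0% of all tested probe sets were called. With progesterone, 0 members were called (lowest limma adjusted p = 0.675) against a background of 0.0398% of probe sets. With both hormones, 0 members were called (lowest limma adjusted p = 0.999) against 0.0133%. At an unadjusted limma p under 0.05 there was 1 member for estrogen, 2.27% of the members, against 3.16% of all tested probe sets. For progesterone it was 0 members against 8.24%, and for both hormones 0 members against 3.41%. These member shares were at or under the background.

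The size of the estimates was small throughout. The median log2 change over the 44 members was 0.057 with estrogen (25 higher and 19 lower than placebo), 0.026 with progesterone (24 and 20) and -0.012 with both (22 and 22). Over all 5499 tested genes the medians were -0.0029, -0.0035 and -0.0083. Single members ran from -0.67 to 0.57 with estrogen, from -0.53 to 0.60 with progesterone and from -0.52 to 0.33 with both. The median standard error of a member's log2 change was 0.217, against 0.234 for all tested genes. The median absolute log2 change of the members was 0.131, 0.120 and 0.115 in the 3 comparisons, each smaller than that standard error, and the same medians over all genes were 0.147, 0.187 and 0.157.

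The intervals set a bound on what could have been missed. The 95% interval of the log2 change, per gene and not adjusted for the number of genes, lay wholly inside a 2-fold change for 37 of 44 members with estrogen, 41 with progesterone and 41 with both. These are 84.1%, 93.2% and 93.2% of members, where all tested genes gave 80.1%, 77.3% and 80%. The intervals are not the same as the test: with 3 arrays per group and adjustment over all probe sets, changes of 2-fold and smaller may have gone uncalled. NDUFS1 and NDUFS6 reached past 2-fold in all 3 comparisons, NDUFA9 with estrogen and with progesterone, NDUFA2 with both hormones, and COX20, COX6A2, SDHD and UQCRB with estrogen.

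**Figure D1:**
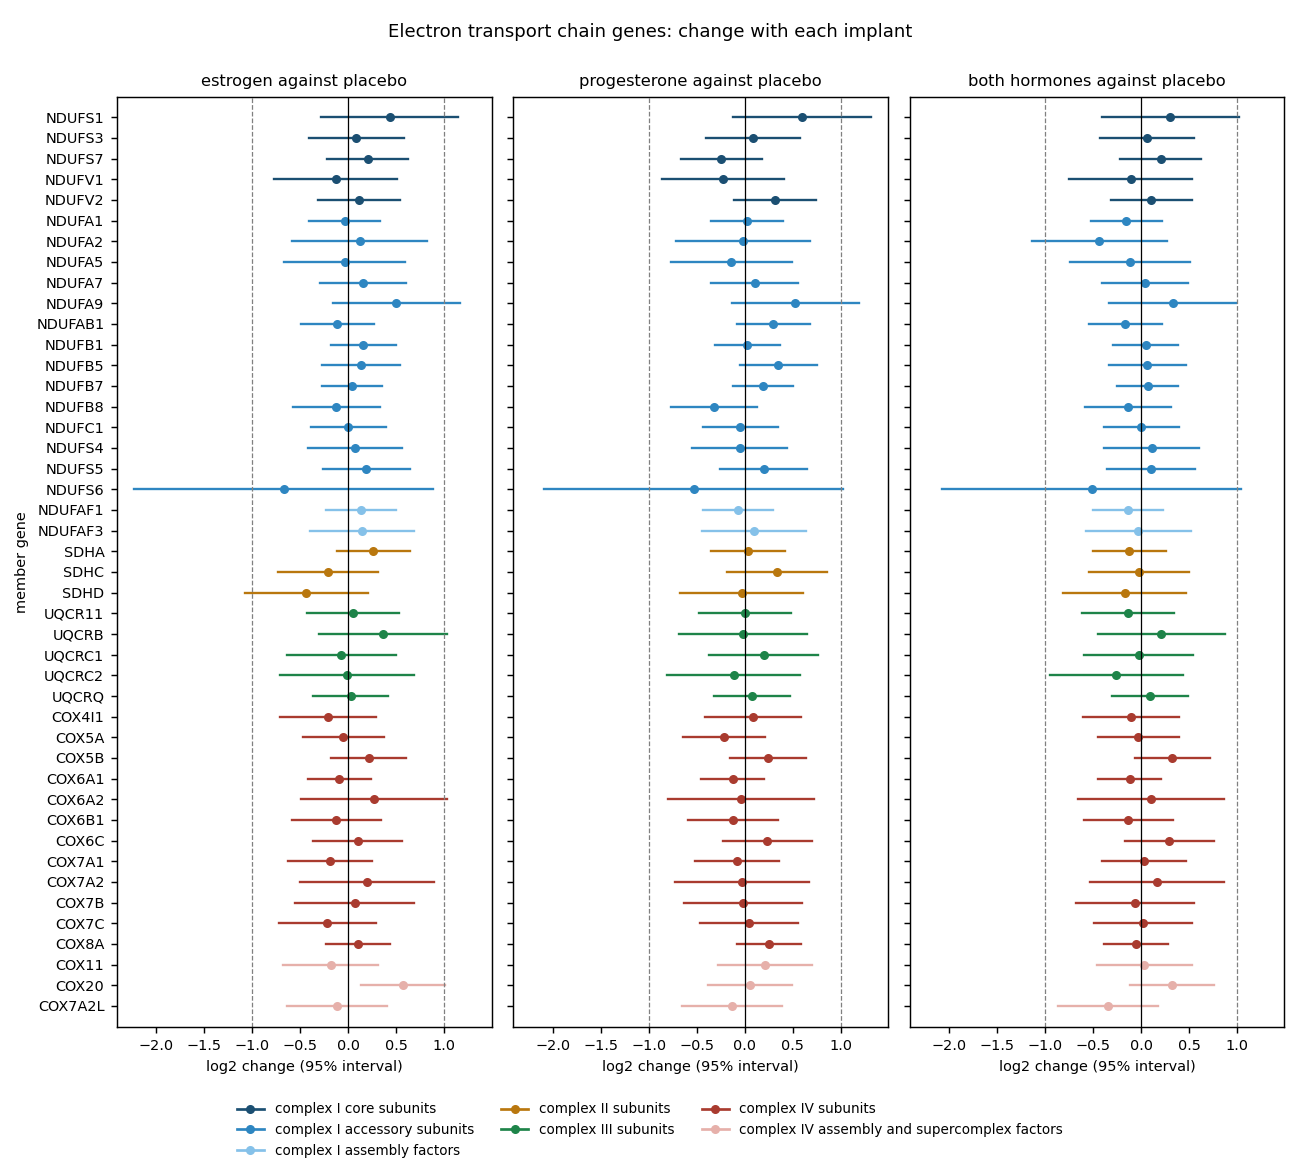
Log2 change against placebo (horizontal axis) of each of the 44 tested members (rows, coloured by role) with estrogen, progesterone and both hormones, in 3 panels; points are estimates, bars are 95% intervals, and dashed lines mark a 2-fold change. Most bars lie between the dashed lines, and the widest belong to NDUFS6, which ran from -2.23 to 0.89 with estrogen.

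Complex I core subunits carry the flavin and the iron-sulfur clusters that lead electrons from NADH to ubiquinone. All 5 that the rule found were tested. Their median log2 change was 0.11 with estrogen (4 higher, 1 lower), 0.085 with progesterone (3 higher, 2 lower) and 0.11 with both hormones (4 higher, 1 lower). NDUFS1, the largest iron-sulfur subunit, read 265, 311 and 558 on the placebo arrays, 645, 378 and 459 with estrogen, 629, 664 and 394 with progesterone and 480, 329 and 586 with both hormones. The placebo arrays alone spanned more than the distance between group means of 378, 494, 562 and 465, and all groups overlapped. Its log2 changes were 0.43 ± 0.33, 0.60 ± 0.33 and 0.30 ± 0.33 (estimate ± SE), with a limma adjusted p of 0.696 for progesterone, the largest estimate of any member in that comparison. The progesterone estimate for NDUFS1 ran from 0.34 with array weights to 0.91 without placebo array 3, and the estrogen estimate from 0.054 with array weights to 0.74 without placebo array 3. Without the pair of arrays high in 28S the estrogen estimate was 0.21.

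NDUFV1, which binds NADH and the flavin, read 990, 1107 and 938 on the placebo arrays, 622, 1068 and 1168 with estrogen, 1216, 687 and 751 with progesterone and 630, 1022 and 1209 with both. Its lowest readings in the estrogen and combined groups were on the 2 arrays with high ribosomal signal, and its log2 changes of -0.13 and -0.11 were 0.11 and 0.15 without them. NDUFS7 holds the last iron-sulfur cluster before ubiquinone. It read 1472, 1006 and 1173 with placebo, 1578, 1173 and 1333 with estrogen, 880, 1152 and 1003 with progesterone and 1323, 1226 and 1485 with both hormones. Every array of the combined group lay above every progesterone array, while both overlapped placebo. NDUFV2, an iron-sulfur subunit next to NDUFV1, read 825, 788 and 818 with placebo, 1007, 949 and 676 with estrogen, 918, 1238 and 922 with progesterone and 813, 826 and 964 with both. The progesterone and placebo arrays did not overlap, with a log2 change of 0.32 ± 0.20 and a limma adjusted p of 0.724. NDUFS3, a core subunit near the ubiquinone site, was at 0.08 with estrogen, 0.08 with progesterone and 0.06 with both on the log2 scale.

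Complex I accessory subunits surround the core and hold it together, and 14 of 17 were tested. With estrogen 8 were higher and 6 lower (median 0.052), with progesterone 8 and 6 (median 0.026) and with both hormones 8 and 6 (median 0.021). NDUFA9, which sits where the arm that oxidizes NADH meets the membrane arm, read 54.2, 47.0 and 42.9 with placebo, 116, 52.4 and 61.9 with estrogen, 61.8, 118 and 55.4 with progesterone and 85.8, 66.9 and 47.4 with both. The estrogen and progesterone groups each held 1 array, at 116 and 118, above the other 2. The log2 changes were 0.50 ± 0.30, 0.53 ± 0.30 and 0.33 ± 0.30. The estrogen estimate was 0.25 without estrogen array 1, the progesterone estimate was 0.21 without progesterone array 2, and the combined estimate was 0.18 without array 1 of that group.

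NDUFS6, a zinc-binding subunit needed late in complex I assembly, was the least steady member. It read 160, 91.9 and 102 with placebo, 30.9, 184 and 59.8 with estrogen, 89.4, 121 and 39.2 with progesterone and 172, 124 and 18.7 with both hormones. Each treated group held at least 1 array below the placebo range, the estrogen and combined groups also held 1 above it, and all groups overlapped. Its log2 changes were -0.67 ± 0.71, -0.53 ± 0.71 and -0.52 ± 0.71. The estrogen estimate for NDUFS6 was -0.069 without the pair of arrays high in 28S and -1.32 without estrogen array 2. The progesterone estimate ran from -0.85 without progesterone array 2 to -0.11 without progesterone array 3. The combined estimate was -1.05 without the pair of arrays high in 28S and 0.30 without array 3 of that group.

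NDUFB5, in the membrane arm, was among the 3 members whose progesterone and placebo arrays did not overlap. It read 383, 366 and 323 with placebo, 482, 309 and 399 with estrogen, 420, 454 and 490 with progesterone and 372, 360 and 385 with both. The progesterone change was 0.35 ± 0.19 on the log2 scale with a limma adjusted p of 0.675, the lowest of any member there. NDUFAB1, the mitochondrial acyl carrier protein, read 173, 212 and 220 with placebo, 204, 170 and 183 with estrogen, 212, 263 and 266 with progesterone and 159, 176 and 210 with both. The progesterone arrays were the upper end and overlapped placebo. NDUFB8, also of the membrane arm, read 2269, 1951 and 1935 with placebo, 1536, 2102 and 2028 with estrogen, 1333, 2436 and 1467 with progesterone and 2001, 1742 and 1800 with both. The 3 progesterone arrays ran both below and above all placebo arrays, and the log2 change was -0.32 ± 0.21. NDUFA2, an accessory subunit of the arm that oxidizes NADH, read 1697, 608 and 1286 with placebo, 1086, 1387 and 1035 with estrogen, 978, 1225 and 1041 with progesterone and 640, 1101 and 696 with both hormones. All treated readings lay inside the placebo range. The combined log2 change for NDUFA2 was -0.44 ± 0.32, and it was -0.16 without placebo array 1 and -0.85 without placebo array 2.

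The remaining accessory subunits had smaller estimates. NDUFA1, NDUFA5, NDUFA7, NDUFB1, NDUFC1, NDUFS4 and NDUFS5 had log2 changes between -0.16 and 0.20 in every comparison with placebo. NDUFB7 had 2 tested probe sets, at 0.04, 0.19 and 0.07 on the brighter and 0.16, 0.08 and 0.12 on the other. The assembly factors NDUFAF1 and NDUFAF3, which help build the complex and are not part of the finished enzyme, were at 0.13 and 0.14 with estrogen, -0.07 and 0.09 with progesterone and -0.14 and -0.03 with both.

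**Figure D2:**
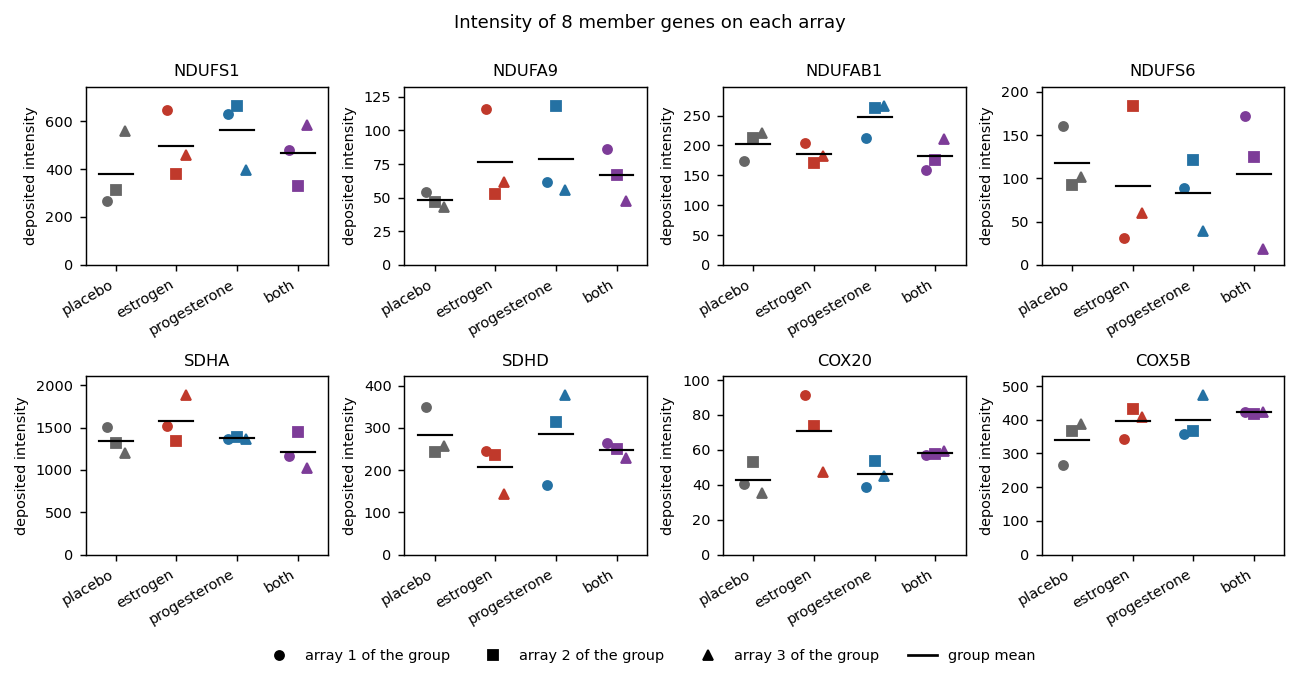
Deposited intensity (vertical axis, linear, from 0) on each of the 12 arrays for NDUFS1, NDUFA9, NDUFAB1, NDUFS6, SDHA, SDHD, COX20 and COX5B, by group (horizontal axis); symbols mark arrays 1, 2 and 3 and lines are group means. The groups overlap for NDUFS1 and NDUFS6, and the 3 combined-hormone arrays of COX5B lie close together between 418 and 424.

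Complex II, succinate dehydrogenase, also serves the citric acid cycle. Of its 3 tested members, 1 was higher and 2 lower with estrogen (median -0.21), 2 higher and 1 lower with progesterone (median 0.033), and 3 lower with both hormones (median -0.12). SDHA, the flavoprotein that oxidizes succinate, read 1506, 1316 and 1199 with placebo, 1525, 1347 and 1880 with estrogen, 1367, 1384 and 1369 with progesterone and 1165, 1452 and 1022 with both. Estrogen arrays 1 and 3 lay above the placebo range and combined arrays 1 and 3 below it, and every group overlapped placebo. Its log2 changes were 0.26 ± 0.18, 0.03 and -0.12, and the combined value was 0.0020 without array 3 of that group.

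SDHC and SDHD are the membrane anchors that bind ubiquinone. SDHC read 155, 198 and 164 with placebo, 188, 103 and 165 with estrogen, 212, 249 and 191 with progesterone and 218, 174 and 129 with both. The progesterone arrays overlapped only the highest placebo array, and the log2 change of 0.33 ± 0.24 was not called. SDHD read 349, 244 and 258 with placebo, 244, 237 and 144 with estrogen, 164, 314 and 377 with progesterone and 264, 249 and 230 with both. With estrogen its normalized values lay below every placebo value, the only such member of 44 (2.27%, against 3.33% of all tested probe sets lower and 6.14% in either direction), but its deposited values met: estrogen array 1 read 244.4 and placebo array 2 read 243.9. The log2 change was -0.44 ± 0.29, and it was -0.56 without the 2 arrays with high ribosomal signal and -0.23 without estrogen array 3.

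Complex III moves electrons from ubiquinol to cytochrome c. Its 5 members had medians of 0.022, 0.0053 and -0.026 with estrogen, progesterone and both. CYC1, also a complex III subunit, falls outside the naming rule and is given further below. UQCRC1, a core protein, read 1430, 1392 and 1533 with placebo, 839, 1509 and 1984 with estrogen, 1688, 1594 and 1706 with progesterone and 1044, 1519 and 1700 with both. The progesterone arrays all lay above placebo, with a log2 change of 0.20 ± 0.26. The low readings were on the 2 arrays with high ribosomal signal, and the changes with estrogen and both hormones, -0.07 and -0.03, were 0.24 and 0.17 without them. UQCRC2, the other core protein, read 212, 133 and 107 with placebo, 99.9, 134 and 230 with estrogen, 153, 137 and 109 with progesterone and 138, 113 and 116 with both. Its combined-hormone change of -0.26 ± 0.32 was 0.024 without placebo array 1. UQCRB, which helps bind ubiquinone, read 145, 165 and 138 with placebo, 325, 137 and 161 with estrogen, 120, 209 and 125 with progesterone and 230, 155 and 155 with both. Its estrogen change of 0.36 ± 0.30 was 0.013 without estrogen array 1. UQCR11 and UQCRQ, small subunits, lay between -0.14 and 0.09 in all 3 comparisons.

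Complex IV, cytochrome c oxidase, passes electrons to oxygen, and its nuclear subunits surround a core made from mitochondrial DNA. The 12 subunits were 6 higher and 6 lower with estrogen (median 0.0059), 5 and 7 with progesterone (median -0.022) and 6 and 6 with both hormones (median -0.0054). COX4I1, a subunit through which ATP regulates the enzyme, read 1578, 1054 and 1319 with placebo, 830, 1120 and 1452 with estrogen, 1152, 1499 and 1480 with progesterone and 892, 1403 and 1285 with both. All groups overlapped, and the log2 changes were -0.21 ± 0.23, 0.09 and -0.11. Without the pair of arrays high in 28S the COX4I1 changes with estrogen and with both hormones were -0.044 and 0.073. COX5B, a zinc-binding subunit, read 266, 366 and 388 with placebo, 344, 432 and 408 with estrogen, 358, 365 and 472 with progesterone and 424, 418 and 424 with both. On normalized values the combined group lay above placebo on every array, the 1 member of 44 that did so (2.27%, against 4.23% of all tested probe sets higher and 8.88% in either direction). The log2 change was 0.32 ± 0.18 with a limma adjusted p of 0.999, and a second probe set of COX5B gave 0.01, so the probe sets did not show the same size. For the single hormones they differed in direction. The estrogen change was 0.21 on the brighter and -0.16 on the second. The mean log2 value with progesterone was 8.67 against 8.43 with placebo on the brighter, and 6.85 against 7.04 on the second.

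COX7C read 238, 217 and 217 with placebo, 167, 204 and 212 with estrogen, 155, 276 and 281 with progesterone and 245, 244 and 203 with both. Its estrogen change was -0.22 ± 0.23, and -0.091 without the pair of arrays high in 28S. COX8A, the smallest nuclear subunit of the family, read 5687, 5753 and 5987 with placebo, 6771, 5413 and 6415 with estrogen, 6591, 8759 and 8201 with progesterone and 5749, 5381 and 5974 with both. On deposited values the progesterone arrays stood above placebo, but after normalization they overlapped it, and the log2 change was 0.25 ± 0.15. COX6A2 and COX7A1 are isoforms best known from muscle, and they were at 0.27 and -0.20 with estrogen. COX6A2 read 395.9 on estrogen array 1, which is high in 28S, and 175.2 and 182.5 on the other estrogen arrays. Its placebo arrays read 175.7 to 232.7. The rest, COX5A, COX6A1, COX6B1, COX6C, COX7A2 and COX7B, lay between -0.22 and 0.29 in every comparison with placebo.

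Among the assembly and supercomplex factors of complex IV, COX20 had the largest estrogen estimate of all 44 members. COX20 is a chaperone for the mitochondrially encoded subunit that receives electrons from cytochrome c. It read 40.3, 53.1 and 35.4 with placebo, 91.2, 73.9 and 47.4 with estrogen, 38.9, 53.8 and 45.0 with progesterone and 57.0, 57.6 and 59.3 with both. Estrogen arrays 1 and 2 lay above all placebo arrays and array 3 lay within them. The combined arrays also lay above placebo as deposited, but overlapped it after normalization. The estrogen change of 0.57 ± 0.20, with an interval of 0.13 to 1.01, had an unadjusted p of 0.0147 and a limma adjusted p of 0.999. Over the alternatives it ran from 0.41 to 0.74, and it was 0.45 without the 2 arrays with high ribosomal signal, with limma adjusted p-values of 0.742 to 0.99998 over the alternatives. COX7A2L, which joins complexes III and IV in supercomplexes, read 1206, 1033 and 1080 with placebo, 665, 1255 and 1246 with estrogen, 865, 1160 and 1023 with progesterone and 843, 708 and 1058 with both. Its combined-hormone change was -0.35 ± 0.24, and the groups overlapped. COX11, which delivers copper to complex IV, was at -0.19, 0.21 and 0.03.

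Progesterone gave the most members whose arrays did not overlap placebo, and still fewer than the array as a whole. NDUFB5, NDUFV2 and UQCRC1 lay above placebo on every progesterone array, 3 of 44 members (6.82%), where 8.56% of all tested probe sets lay above and 16.7% did not overlap in either direction. Serotonin neuron genes, listed as markers, were lower in the same arrays for 7 of 8 tested genes, with a median log2 change of -0.45. Their summed intensity was 1074 to 1289 with progesterone and 1353 to 1674 with placebo. SLC6A4 gave the most signal of the 8 and weighs most in these sums. The 13 tested neuron markers had sums of 41478 to 47650 and 38969 to 44238. Of 7 tested microglia markers 6 were higher and 1 lower with progesterone (median 0.30). At an unadjusted limma p under 0.05, 1 of the 7 was higher and 1 lower. The 10 astrocyte markers were 5 higher and 5 lower (median 0.026), with 3 lower at an unadjusted limma p under 0.05. Medians of the oligodendrocyte, endothelium, blood and cerebellum lists lay between -0.11 and 0.059. With estrogen 8 of 9 cerebellum markers were higher (median 0.22). The part of these cell type differences in the members' values was not tested.

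Adding the second hormone was compared within each treated background. For both hormones against estrogen, 0 members were called (lowest limma adjusted p = 0.9995), where 0% of probe sets were called. At an unadjusted p under 0.05 there was 1 member, SDHA, with 2.27% of members against 2.85% of probe sets. SDHA was -0.38 ± 0.18 on the log2 scale, and its arrays overlapped. Same-numbered arrays of these groups correlated in their deviations, but so did arrays 2 and 3 across numbers. SDHA had an unadjusted limma p of 0.0702 with the replicate number as a block in the fit of all 12 arrays. With the block in a fit of these groups alone it was 0.141, and NDUFA2 was the 1 member under 0.05 (lowest limma adjusted p of any member = 0.923). The median member change was -0.029, with 16 higher and 28 lower. COX8A was the 1 member whose normalized values did not overlap (2.27%, against 3.17% of probe sets lower and 6.74% in either direction), although its deposited values did.

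For both hormones against progesterone, 0 members were called (lowest limma adjusted p = 0.527), against 0.0133% of probe sets. NDUFAB1 and NDUFS7 had an unadjusted p under 0.05, which is 4.55% of members against 7.74% of probe sets. NDUFAB1 was -0.46 ± 0.17 (limma adjusted p = 0.527), with the combined arrays at 159 to 210 and the progesterone arrays at 212 to 266. NDUFS7 was 0.45 ± 0.19 (limma adjusted p = 0.607), with the combined arrays at 1226 to 1485 and the progesterone arrays at 880 to 1152. Arrays did not overlap for 5 members: COX8A, NDUFAB1, NDUFB5 and NDUFB7 were lower with both hormones and NDUFS7 was higher. This is 11.4% of members against 15.9% of all tested probe sets, of which 8.37% were lower and 7.51% higher. The second probe set of NDUFB7 overlapped as deposited, at 402 to 471 with both hormones and 309.6 to 505.3 with progesterone. The median member change was -0.058, with 18 higher and 26 lower, and 41 members had an interval inside a 2-fold change.

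The interaction asks whether the 2 hormones together differ from the sum of their separate changes. None of the 44 members was called for the interaction (lowest limma adjusted p = 0.966), 0 had an unadjusted p under 0.05 against 4.99% of probe sets, and 0% of probe sets were called. The median over members was -0.13, with 15 higher and 29 lower, where all tested genes had a median of 0.0035 and 50.4% higher. Leaving out placebo array 3 gave a member median of -0.054. NDUFS1 was at -0.72 ± 0.46, NDUFA9 at -0.69 ± 0.43, NDUFS6 at 0.69 ± 1.01 and COX8A at -0.41 ± 0.21. The interaction and all 3 comparisons above share the placebo arrays. A test for any difference among the 4 groups called 0 members (lowest limma adjusted p = 0.856), with 0 members at an unadjusted p under 0.05 against 5.8%, and called 0.0531% of probe sets.

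Taken by array, the members did not separate the groups. On the log2 scale, each member was set against its own mean over the 12 arrays and the median was taken over members. This median was highest on progesterone array 2 at 0.16, where 36 of 44 members were above their mean, and lowest on progesterone array 1 at -0.090, where 18 were. Both extremes were in the same group. The pooled within-group SD of the array median was 0.0757. Without progesterone array 2 the median progesterone change over members was -0.047, and without progesterone array 1 it was 0.094. For estrogen the median was 0.00037 without estrogen array 3. By complex, complex II was at 0.36 on progesterone array 2 and -0.39 on combined array 3, and complex IV was at -0.23 on progesterone array 1 against 0.10 and 0.098 on the other progesterone arrays.

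**Figure D3:**
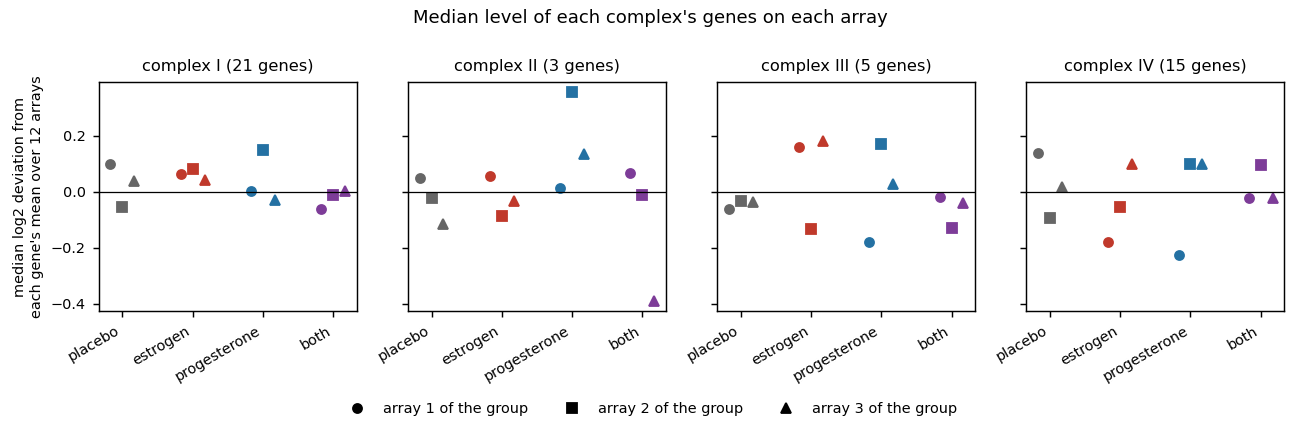
Median log2 deviation from each gene's mean over 12 arrays (vertical axis) for the tested genes of complex I (21), II (3), III (5) and IV (15) on each array, by group (horizontal axis). Arrays of 1 group spread widely for complex II, from 0.013 to 0.36 with progesterone and from -0.39 to 0.068 with both hormones.

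Members varied within groups about as other genes did, or less. The median residual SD on the log2 scale was 0.257 over the 44 members and 0.290 over all tested genes, and 28 members lay under that all-gene median. The members' probe sets also gave more signal, with a median mean log2 value of 8.97 against 7.70, which on this array is no measure of transcript amount. NDUFS6 had the highest residual SD at 1.05, followed by COX6A2 at 0.481 and NDUFS1 at 0.448. Within-group deviations of member pairs had a median Pearson r of 0.074 over 946 pairs, against 0.0006 over all gene pairs. These pairs share the same 12 arrays.

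The 2 arrays with high ribosomal signal were also compared with the rest, member by member. Both lay outside the range of the other 10 arrays, to the same side, for 9 of 44 members (20.5%), against 17.2% of all tested probe sets, 8.79% above and 8.39% below. The 4 members above were COX6A2, COX7A2, NDUFS4 and UQCRB, and the 5 below were COX4I1, NDUFA1, NDUFA5, NDUFV1 and UQCRC1. COX6A2 read 396 and 353 on these arrays and 143 to 233 on the others. COX7A2 read 348 and 370 against 135 to 259. Without both arrays the median log2 changes over members were 0.025, 0.026 and 0.00067 for estrogen, progesterone and both hormones, and 0 members were called.

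**Figure D4:**
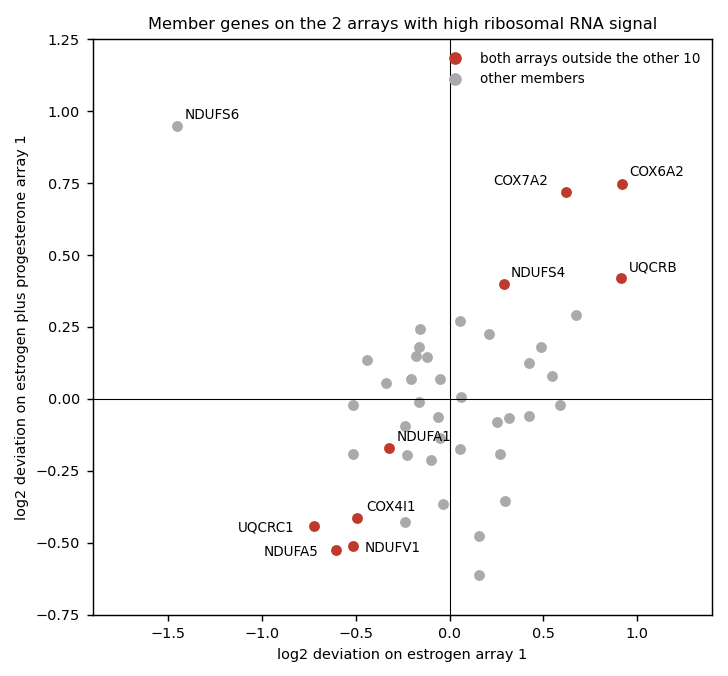
Each tested member's log2 deviation from its mean over the 12 arrays on estrogen array 1 (horizontal axis) and on estrogen plus progesterone array 1 (vertical axis); red marks the 9 members outside the range of the other 10 arrays on both. COX6A2 lies at 0.92 and 0.75 and COX4I1 at -0.49 and -0.42.

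Genes around the chain and others outside the naming rule had 0 called in each list and comparison. CYC1, the heme subunit of complex III that meets cytochrome c, is part of the chain, but its symbol does not begin with UQCR. It was listed with CYCS, cytochrome c itself, among 7 tested genes grouped as mobile carriers and feeder enzymes. With progesterone 6 of the 7 were higher and 1 lower (median 0.19), and their summed intensity was 3043 to 3395 against 2411 to 3003 with placebo. CYC1 and CYCS gave the most signal of the 7 and weigh most in that sum. CYC1 read 959 ± 213 with placebo and 1187 ± 42.4 with progesterone (mean ± SD, n = 3). Its log2 change was 0.32 ± 0.18, with an unadjusted limma p of 0.0995. With both hormones against progesterone all 7 listed genes were lower (median -0.33), and so were all 7 for the interaction (median -0.35). The members had medians of -0.058 and -0.13 there, with 26 and 29 of 44 lower. In these comparisons 1 and 0 of the 7 had an unadjusted limma p under 0.05. The progesterone arrays enter all of these comparisons. Of ATP synthase, 11 of 14 named genes were tested, with medians of -0.080, 0.0066 and -0.025 for estrogen, progesterone and both. ATP5MC2, a subunit of its rotating ring, had a progesterone change of -1.17 ± 0.50 with a limma adjusted p of 0.572.

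Among regulators of mitochondrial genes 4 of 10 named were tested, namely ESRRA, ESRRG, POLG and YY1, with medians of 0.045, -0.054 and -0.20. YY1 had the lowest estrogen value, -0.41 ± 0.24. Assembly and translation factors of the chain (6 tested) had medians of 0.043, 0.075 and -0.065. Carriers and channels of the mitochondrial membranes (11 tested) had medians of 0.071, -0.036 and 0.0042. The 2 tested mitochondrial antioxidant genes had medians of -0.043, 0.24 and -0.085.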

How the data were processed

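RNA from the dorsal raphe of 12 monkeys was hybridized to a human Affymetrix array. Per the labels' protocols, extraction used Trizol and then Qiagen columns, and the label was biotin. The deposited values are 1 linear intensity per probe set, scaled by the authors; how the probes were summarised, and with what software, is not given in the sources used here. Names came from the platform annotation: 10943 had 1 symbol, 545 several and 1070 none. Probe sets with several symbols were never members.

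Groups came from the labels' titles. The progesterone arrays were placed by source name, since their titles carry the codes of the combined group. Replicates are separate monkeys. From the deposited intensities, log2(intensity + 8.26) was computed, the offset being the pooled 10th percentile, and quantile normalized. This scale understates changes of dim probe sets. The lowest 40% of probe sets by mean were left out (5023), and 67 control probe sets were not tested. Limma 3.58.1 in R 4.3.3 fitted all 12 arrays with 2-sided tests, and the code was tested on simulated data. Groups were called not overlapping on normalized values.

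The members and gene lists were chosen with earlier results of these data known. Values on every array are given for members among the 4 highest or 4 lowest changes in a comparison with placebo. They are also given for the tested members of a chosen list of subunits, namely NDUFV1, NDUFS1, SDHA, UQCRC1, COX4I1 and COX5B. NDUFAB1, NDUFV2 and COX8A were added after their values were seen, as were the readings of COX6A2 and of the second probe set of NDUFB7. Alternatives changed the normalization, offset, dim filter, probe set per gene, variance model, array weights, the arrays fitted, a replicate block and single arrays. Same-numbered arrays correlated over 0.1 in their deviations for 5 of 18 pairs. The estrogen and combined groups were the only groups where this held for every number (0.41, 0.30 and 0.13), so a blocked value is given for that comparison. That fit was chosen after seeing the data. Some differently numbered arrays of these groups also correlated. Estrogen array 3 and combined array 2 were at 0.21, and estrogen array 2 and combined array 3 at 0.12. Pairs of array 1 of either group with a differently numbered array of the other ran from -0.35 to -0.18. The 0.41 is for array 1 of each group, the arrays with high ribosomal signal. Each deviation was taken from the mean of its group of 3, so these correlations are not independent of each other. The pairing comes from the values, and the labels state none.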

Additional observations from a re-analysis of the deposited data

Results flagged for a closer look

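The 28S ribosomal RNA control, which is outside the genes tested, read 841 on estrogen array 1 and 1354 on estrogen plus progesterone array 1, where the highest placebo array read 90.8. Groups of 3 are too small for the check for single arrays far from the rest, and no interaction of the hormones passed the test for any of the 44 members.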

How the results depend on the processing

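Over 24 other settings, the 153 counts of members called were all 0, and of 820 values of single named members 798 kept their sign, with a lowest limma adjusted p of 0.287 (NDUFB5 with progesterone). Leaving out 1 array at a time gave member medians of 0.00037 to 0.072 for estrogen, -0.047 to 0.094 for progesterone, -0.041 to 0.042 for both hormones, -0.072 to -0.027 for both against estrogen, -0.11 to -0.028 for both against progesterone and -0.17 to -0.054 for the interaction. Members with an interval inside a 2-fold change numbered 36 to 42, 38 to 41, 35 to 42, 36 to 42 and 37 to 42 in the first 5 of these. Over the remaining settings they numbered 34 to 43 for estrogen and 36 to 43 for each of the rest. Member medians in those settings reached -0.052 for both hormones and -0.021 for both against estrogen, outside the ranges above.

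For 11 changes against placebo, some setting turned the sign, and none of these values was called. With array weights, estrogen gave 0.045 for NDUFS6, 0.047 for NDUFV1 and 0.10 for UQCRC1, and both hormones gave 0.019 for COX4I1, 0.073 for NDUFV1 and 0.073 for UQCRC1. Without both arrays of high ribosomal signal, estrogen gave 0.11 for NDUFV1 and 0.24 for UQCRC1, and both hormones gave 0.073 for COX4I1, 0.15 for NDUFV1 and 0.17 for UQCRC1. Leaving out 1 array at a time, estrogen gave -0.28 to 0.12 for NDUFV1 and -0.30 to 0.24 for UQCRC1, progesterone gave -0.046 to 0.20 for COX4I1 and -0.023 to 0.079 for SDHA, and both hormones gave -0.24 to 0.073 for COX4I1, -1.04 to 0.30 for NDUFS6, -0.30 to 0.15 for NDUFV1, -0.26 to 0.0020 for SDHA, -0.15 to 0.17 for UQCRC1 and -0.48 to 0.024 for UQCRC2. The cause was not tested.

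With the replicate number as a block, 0 members were called, and the probe sets called for progesterone over the whole array went from 3 to 0. Every group holds each replicate number, so the block cannot move a log2 change or turn its sign. The medians of 0.057, 0.026 and -0.012 were thus fixed in advance, and only standard errors and p-values could change. Over all groups, same-numbered arrays had deviation correlations of -0.22 to 0.41, and only the estrogen and combined groups met the rule for pairs. For both hormones against estrogen, the median of -0.029 was likewise fixed. The block gave 41 members with an interval inside a 2-fold change, and 42 when only these groups were fitted. With 3 arrays per group, changes of 2-fold and smaller may go uncalled, and a dim probe set such as that of NDUFA9 or COX20 lies closer to background.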
